A study of Homo sapiens with 12 samples.

Results

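The integrated stress response regulators examined here are 10 genes taken by symbol from the deposited comparison tables: the transcription factor genes ATF4, ATF3, ATF5, DDIT3 (the gene of CHOP), CEBPB and CEBPG, and the signalling genes TRIB3, CHAC1, PPP1R15A and EIF2AK3. They are 10 of 23375 genes with a row in any of the 4 tables, and all 10 had a row and an adjusted p in each table, so none was lost to the authors' filter on low counts. The rule that picks the members is a list of symbols and uses no measured value, but the list was drawn up with earlier results of these data known. All symbols were given with Ensembl identifiers, ATF4 as ENSG00000128272, DDIT3 as ENSG00000175197, TRIB3 as ENSG00000101255 and CHAC1 as ENSG00000128965.

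SUM159 is an established line of triple-negative breast cancer, taken from a primary tumour according to the labels. Polyadenylated RNA was read as 50-base single-end reads in 12 libraries, 3 in each of 4 groups: cells with the scramble hairpin shCTRL left untreated, shCTRL cells given 140 nM gemcitabine for 24 h, cells with a hairpin against the zinc finger transcription factor gene E4F1 (shE4F1) left untreated, and shE4F1 cells given the same gemcitabine. Gemcitabine, an analogue of deoxycytidine, halts DNA replication. All cells carried a hairpin and grew in medium with serum, insulin and hydrocortisone. The labels name neither the hairpin sequences nor the number of clones, and do not say whether replicate libraries were grown as separate cultures. The p-values therefore measure the spread between the libraries read, part or all of which may be technical.

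When unfolded proteins, scarce amino acids, absent haem or viral RNA activate a kinase of the translation factor eIF2, general protein synthesis falls while the ATF4 mRNA is translated more, because of short reading frames ahead of its coding sequence. ATF4 protein then switches on DDIT3, ATF3, TRIB3, CHAC1 and many genes of amino acid supply. PPP1R15A, the regulatory subunit of an eIF2 phosphatase, ends the response. Because much of ATF4's control is exercised on translation, its mRNA level and the activity of its protein need not move together, and only mRNA was measured.

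ATF4 and its partners bind composite sites called C/EBP-ATF response elements, so the promoter windows of the members were searched for the letters TGATGNAA, and for the cAMP response element TGACGTCA, on both strands. RefSeq windows (GRCh38.p14) of 300 bases, from 250 before to 50 after a start site, matched all 10 members with 19 windows. Of all 35116 windows 3.62% held TGATGNAA and 1.85% held TGACGTCA. Among the members, TGATGNAA lay in 1 window each of ATF3, CEBPG and CHAC1, and TGACGTCA in that of PPP1R15A. The 4 matches are shown with flanking bases because these members differ in how they moved; capitals mark the match, all are written on the strand of the gene, and that of CHAC1 is on the opposite strand and so reads as its reverse complement.
ATF3 (chr1:212565205-212565234, plus strand): aaaggtcaggaTGATGGAAggctgtcatat
CEBPG (chr19:33374060-33374089, plus strand): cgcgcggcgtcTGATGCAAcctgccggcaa
CHAC1 (chr15:40953251-40953280, plus strand): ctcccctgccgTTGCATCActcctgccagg
PPP1R15A (chr19:48872352-48872381, plus strand): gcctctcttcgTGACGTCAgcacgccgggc

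The matches begin 191 bases before a start site for ATF3, 42 for CEBPG, 209 for CHAC1 and 58 for PPP1R15A. The core TGACG alone was in 24.6% of all windows and in windows of ATF4, ATF5, CEBPB and PPP1R15A, the last in part within the longer match. The endoplasmic reticulum stress element was in 0.0769% of all windows and in none of the 19. These are matches of letters, and binding was not measured.

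Changes below are on the log2 scale with their SE, and come from the authors' deposited tables unless they are said to be derived. A gene "rose" or "fell" where the adjusted p (DESeq2 Wald test as deposited, Benjamini-Hochberg) was under 0.05. Each deposited table covers 6 libraries and also gives the mean normalized count over them. With 3 libraries on each side, that mean and the fold change imply a mean for each group, which is printed as the implied mean. The fold changes were moderated towards 0 and each table has its own scale, so implied means serve for comparison within a table only: over 12691 genes the implied mean of untreated shCTRL cells in the table of gemcitabine in shCTRL cells was 1.15 times that in the untreated knockdown table (median). That ratio ran from 1.12 at the 5th to 1.18 at the 95th percentile of these genes. Of the members, ATF3 (654 against 476) and PPP1R15A (5314 against 4116) lay furthest above this span. No value per library was used, so library depth is unknown here and whether single libraries overlapped between groups cannot be given.

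The hairpin was checked first: E4F1 stood at 0.503 times its shCTRL level in untreated cells and at 0.532 times under gemcitabine, from the authors' deposited tables (adjusted p = 0.000778 and 1.47e-07). In the authors' deposited table of the untreated knockdown the mesenchymal markers VIM and ZEB1 had mean normalized counts of 66531 and 4611, and the epithelial and luminal markers CDH1 and ESR1 had 5.34 and 9.21. ERBB2, the gene of the receptor HER2, had a mean of 2833 in that authors' deposited table. The blood cell markers PTPRC and CD14 had means of 42.6 and 4.98 there, and the endothelial markers KDR, PECAM1 and TEK had 1801, 183 and 4.62. Their log2 changes with shE4F1 were -2.21 for PTPRC, 2.34 for KDR and 1.40 for PECAM1 in that authors' deposited table, and their part in the results was not tested. Among genes with a mean of at least 50 the median SE was 0.167, 0.124, 0.168 and 0.177 in the tables of the untreated knockdown, the knockdown under gemcitabine, gemcitabine in shCTRL cells, and shE4F1 with gemcitabine against untreated shCTRL. The last 2 of these and the first share the untreated shCTRL libraries.

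**Figure D1:**
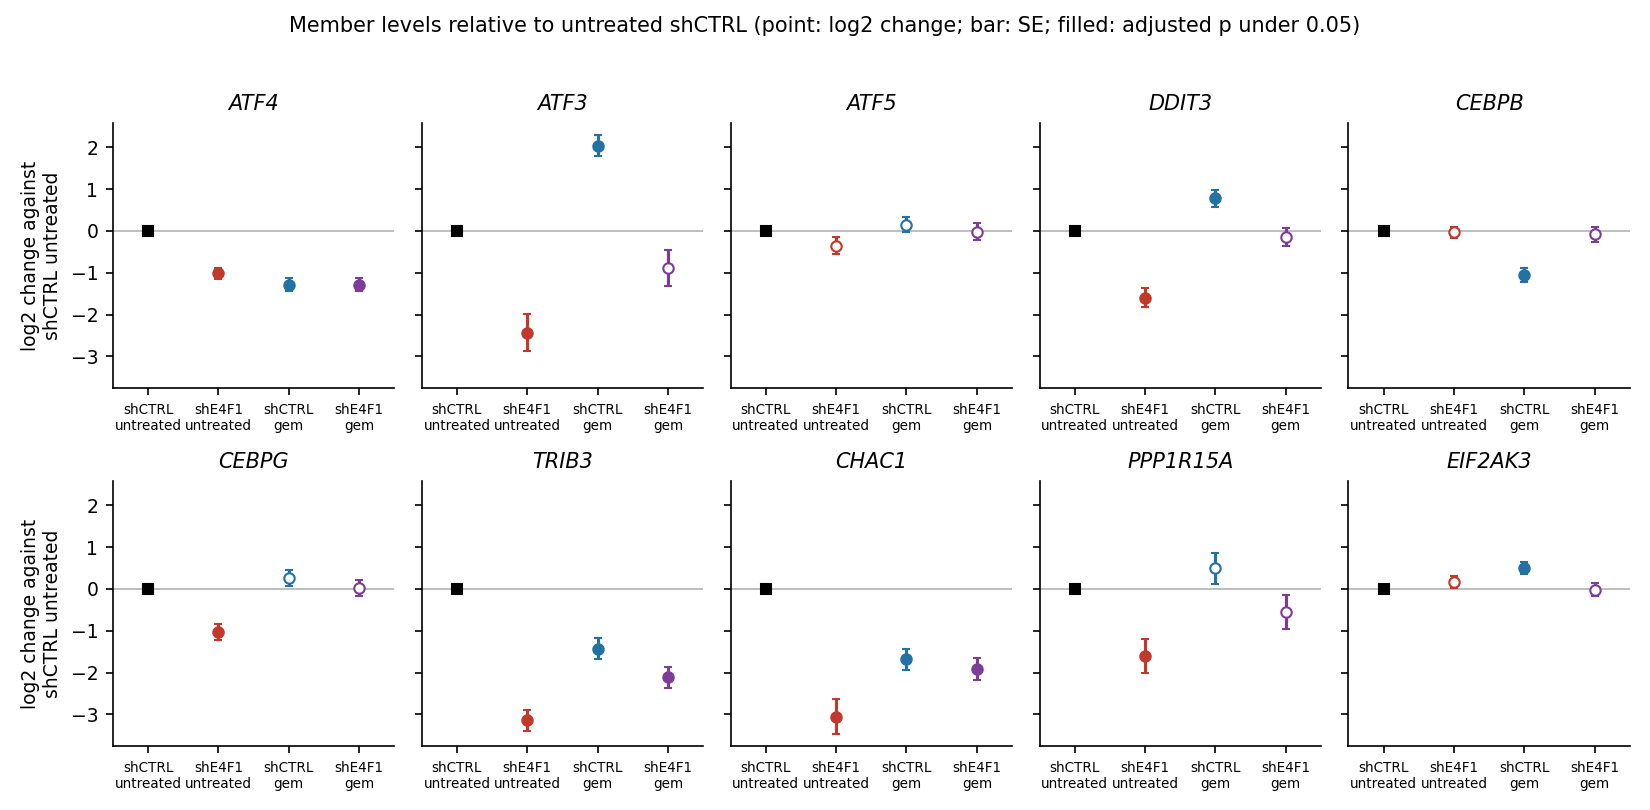
Level of each member in the 4 groups as the log2 change against untreated shCTRL cells (square at 0), from the 3 deposited tables that use those libraries as reference; points are log2 changes, bars are SE, filled points have an adjusted p under 0.05, and "gem" is gemcitabine. ATF4, TRIB3 and CHAC1 lie below 0 in all 3 other groups, while ATF3 lies at 2.04 in shCTRL cells with gemcitabine and at -2.43 in untreated shE4F1 cells.

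Without drug, the question was which of the regulators differ between shE4F1 and shCTRL cells. The arm from ATF4 to CHOP was lower with shE4F1: 7 of the 10 members fell, none rose, and 3 (ATF5, CEBPB and EIF2AK3) did not pass the test. Of all genes tested in this comparison 19.3% fell and 17.5% rose. The members' median was -1.31, against -0.01 over all genes tested. The changes of these 7 ranged from -1.02 for CEBPG and ATF4 to -3.14 for TRIB3.

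ATF4, the central transcription factor, had implied means of 8354 in shCTRL and 4126 in shE4F1 cells and fell by 1.02 ± 0.14 in the authors' deposited table (adjusted p = 1.12e-11). DDIT3, whose product CHOP promotes cell death under lasting stress, had implied means of 2384 and 790 and fell by 1.59 ± 0.23 in the authors' deposited table (adjusted p = 2.29e-10). ATF3, an early-response repressor of stress genes, had implied means of 476 and 88.3 and fell by 2.43 ± 0.43 in the authors' deposited table (adjusted p = 2.67e-07). ATF3 was thus at 0.185 times its shCTRL level, with an interval of 0.103 to 0.335 at 95% confidence.

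TRIB3, a pseudokinase that binds ATF4 and CHOP and feeds back on them, had implied means of 7576 and 858 and the steepest fall of the 10, -3.14 ± 0.25 in the authors' deposited table (adjusted p = 5.95e-34). CHAC1, which degrades glutathione, had implied means of 1024 and 123 and fell by 3.05 ± 0.42 in the authors' deposited table (adjusted p = 6.04e-12). The ratio of shE4F1 to shCTRL was 0.113 for TRIB3 and 0.120 for CHAC1. PPP1R15A fell by 1.60 ± 0.41 in the authors' deposited table (adjusted p = 0.000480), from an implied 4116 to 1353.

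The C/EBP genes went separate ways. CEBPG, a dimer partner of ATF4, fell by 1.02 ± 0.19 in the authors' deposited table (adjusted p = 1.10e-06), whereas CEBPB, which can pair with CHOP and ATF4, was at -0.03 ± 0.14 there (adjusted p = 0.887). For CEBPB the interval of the ratio of shE4F1 to shCTRL was 0.808 to 1.18. ATF5, a relative of ATF4 also controlled on translation, was at -0.35 ± 0.20 in the authors' deposited table (adjusted p = 0.159). EIF2AK3, the gene of the kinase PERK that senses unfolded proteins in the endoplasmic reticulum, was at 0.17 ± 0.14 in the authors' deposited table (adjusted p = 0.382).

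Under gemcitabine, the same comparison of shE4F1 with shCTRL cells gave another profile. Of the 10 members 6 fell and 1 rose, where 20.8% of all genes tested fell and 20.3% rose, and the members' median was -0.37. ATF3, PPP1R15A and DDIT3 carried the largest falls, while ATF4 and CHAC1 did not pass the test.

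ATF3 had implied means of 2715 in shCTRL and 287 in shE4F1 cells, both with drug, and fell by 3.24 ± 0.17 in the authors' deposited table (adjusted p = 2.93e-77). PPP1R15A went from an implied 7711 to 3191, a change of -1.27 ± 0.10 in the authors' deposited table (adjusted p = 2.68e-34). DDIT3 went from an implied 4887 to 2506, a change of -0.96 ± 0.10 in the authors' deposited table (adjusted p = 8.33e-20). These 3 genes thus differed between the hairpins in both conditions, as did TRIB3 and CEBPG. TRIB3 fell by 0.64 ± 0.13 in the authors' deposited table (adjusted p = 2.65e-06), from an implied 2940 to 1881.

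CHAC1 had implied means of 337 and 299 and a change of -0.17 ± 0.16 in the authors' deposited table (adjusted p = 0.456), with an interval of 0.712 to 1.11 for the ratio. ATF4 had implied means of 3830 and 3907 and a change of 0.03 ± 0.12 in the authors' deposited table (adjusted p = 0.887), with an interval of 0.868 to 1.20. For neither gene was a difference between the hairpins called under gemcitabine, which does not show that their levels were equal. CEBPB was the member that rose, by 1.00 ± 0.15 in the authors' deposited table (adjusted p = 4.46e-10), from an implied 1232 to 2456. EIF2AK3 fell by 0.50 ± 0.12 (adjusted p = 8.55e-05) and CEBPG fell by 0.24 ± 0.09 (adjusted p = 0.0208) in the authors' deposited table, and ATF5 was at -0.15 ± 0.17 (adjusted p = 0.538).

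Taken as a difference of the other tables of the same triangle, whose SE is larger, the falls under gemcitabine of TRIB3, PPP1R15A, EIF2AK3 and CEBPG lost their call (adjusted p = 0.197, 0.202, 0.0770 and 0.661), with changes of -0.68, -1.04, -0.51 and -0.25 against -0.64, -1.27, -0.50 and -0.24 as deposited by the authors. Those of ATF3 and DDIT3 and the rise of CEBPB were called there too.

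Whether the knockdown effect differs between the conditions was tested by subtracting the untreated effect from the treated one, in tables that share no library (two-sided normal test, Benjamini-Hochberg over 20923 genes). The effects differed for 6 of the 10 members: the difference was above 0 for 5 and below 0 for 1, where 2.81% and 2.63% of all genes tested had such calls. The members' median difference was 0.70, against 0.04 over all genes tested.

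The derived difference was largest for CHAC1, at 2.88 ± 0.45 (adjusted p = 6.06e-08), and TRIB3, at 2.50 ± 0.28 (adjusted p = 1.09e-15). In both, a steep fall without drug was met by a small or uncalled one with drug. For ATF4 it was 1.05 ± 0.18 (adjusted p = 3.44e-06) and for CEBPG 0.77 ± 0.21 (adjusted p = 0.00918). CEBPB gave 1.03 ± 0.21 (adjusted p = 8.35e-05), here because it moved with drug only. EIF2AK3 gave -0.67 ± 0.18 (adjusted p = 0.00985), the reverse sign.

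No call was made for DDIT3 at 0.63 ± 0.26 (adjusted p = 0.140), ATF3 at -0.81 ± 0.47 (adjusted p = 0.395), PPP1R15A at 0.33 ± 0.42 (adjusted p = 0.803) or ATF5 at 0.20 ± 0.26 (adjusted p = 0.803). The intervals of these ratios of ratios at 95% confidence were 1.09 to 2.19 for DDIT3, whose p before adjustment was 0.0137, 0.302 to 1.08 for ATF3 and 0.710 to 2.23 for PPP1R15A. The absence of a call does not show that the effects were equal. Taken through the gemcitabine effects instead, with the untreated shCTRL libraries counted in several terms and a larger SE, the calls of CEBPB, CEBPG and EIF2AK3 were lost (adjusted p = 0.0564, 0.505 and 0.301), and 3 members were called, all above 0.

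**Figure D2:**
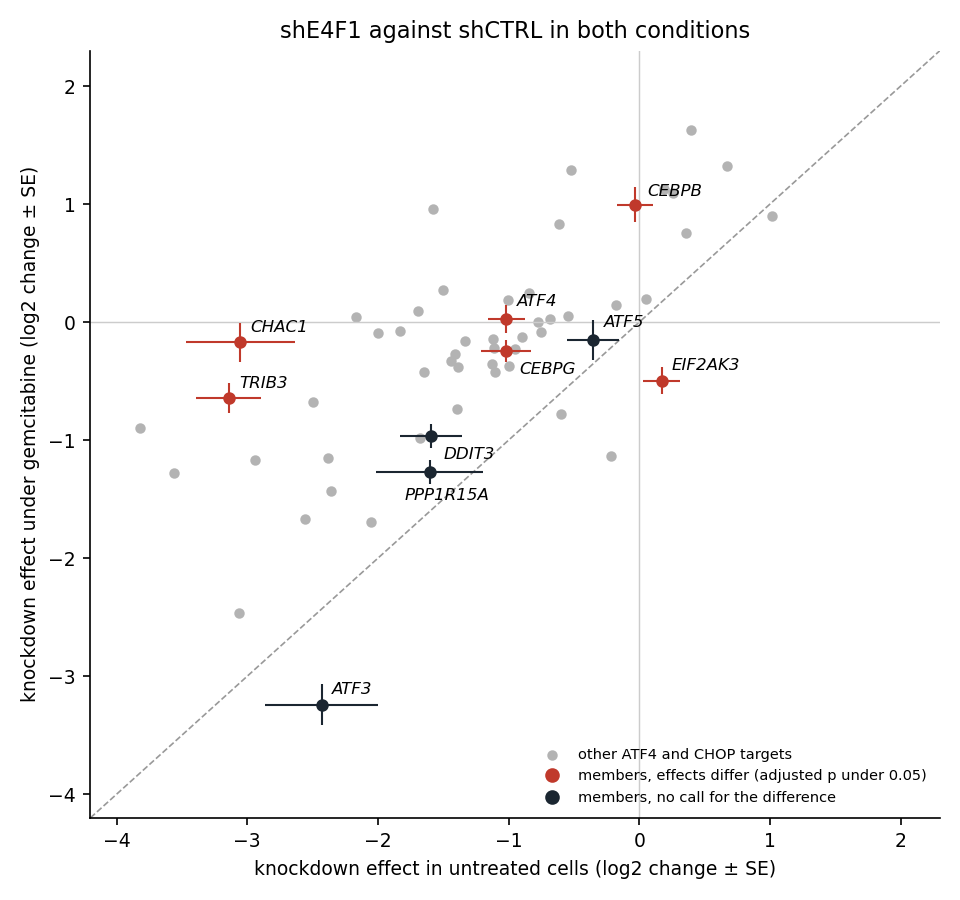
Knockdown effect (shE4F1 against shCTRL, log2 change ± SE) in untreated cells on the x axis and under gemcitabine on the y axis, for the 10 members and, in grey, 47 other ATF4 and CHOP targets; on the dashed line the effects are equal. CHAC1 and TRIB3 lie far above the line, at differences of 2.88 and 2.50, ATF3 and EIF2AK3 lie below it, and most grey points lie above it.

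Gemcitabine in shCTRL cells separated the regulators into those that rose and those that fell. ATF3, DDIT3 and EIF2AK3 rose, ATF4, CEBPB, TRIB3 and CHAC1 fell, and ATF5, CEBPG and PPP1R15A did not pass the test. The shares of all genes tested were 14.5% higher and 13.5% lower. The members' median was 0.21. ATF4 and DDIT3, regulator and target, thus moved in opposite directions at the level of mRNA.

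ATF3 had implied means of 654 without and 2690 with drug and rose by 2.04 ± 0.26 in the authors' deposited table (adjusted p = 1.18e-13). DDIT3 rose by 0.78 ± 0.21 in the authors' deposited table (adjusted p = 0.00166), from an implied 2846 to 4884. EIF2AK3 rose by 0.49 ± 0.14 in the authors' deposited table (adjusted p = 0.00393), from an implied 1169 to 1646. PPP1R15A was at 0.50 ± 0.37 in the authors' deposited table (adjusted p = 0.349), a change as large as that of EIF2AK3 with a wider SE.

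CHAC1 went from an implied 1197 to 373, a change of -1.68 ± 0.25 in the authors' deposited table (adjusted p = 1.22e-09). TRIB3 went from an implied 8610 to 3194, a change of -1.43 ± 0.25 in the authors' deposited table (adjusted p = 2.26e-07). ATF4 went from an implied 9588 to 3943, a change of -1.28 ± 0.15 in the authors' deposited table (adjusted p = 1.27e-15). CEBPB fell by 1.04 ± 0.17 in the authors' deposited table (adjusted p = 1.84e-08), while CEBPG was at 0.27 ± 0.19 (adjusted p = 0.311) and ATF5 at 0.15 ± 0.18 (adjusted p = 0.592).

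With both changes, that is shE4F1 cells under gemcitabine against untreated shCTRL cells, 3 of the 10 members fell and none rose, where 16.3% of all genes tested fell and 15.8% rose. TRIB3 fell by 2.11 ± 0.25 (adjusted p = 2.31e-15), CHAC1 fell by 1.91 ± 0.26 (adjusted p = 5.91e-12) and ATF4 fell by 1.28 ± 0.16 (adjusted p = 2.87e-14) in the authors' deposited table. The same 3 genes had fallen with either change alone, in tables that share these untreated shCTRL libraries. For TRIB3 and CHAC1 the estimate with both was smaller than that with the knockdown alone (-2.11 against -3.14, and -1.91 against -3.05). Neither difference was called in the derived test given below.

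The other 7 members were not called with both changes. For ATF3 the authors' deposited table gave -0.89 ± 0.43 (adjusted p = 0.0986), between its fall with the knockdown and its rise with the drug. The authors' deposited table also gave DDIT3 at -0.16 ± 0.22 (adjusted p = 0.643), CEBPG at 0.02 ± 0.19 (adjusted p = 0.958), CEBPB at -0.08 ± 0.17 (adjusted p = 0.772) and PPP1R15A at -0.55 ± 0.40 (adjusted p = 0.325).

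The effect of gemcitabine within shE4F1 cells is in no deposited table and was derived as the table of both changes minus the untreated knockdown table. The untreated shCTRL libraries enter both, which makes this SE too large and the test hard to pass: 0.925% of 21080 genes were called higher and 0.185% lower. Of the members 2 were called higher and none lower. DDIT3 was higher by 1.44 ± 0.32 (adjusted p = 0.00146) and CEBPG by 1.04 ± 0.27 (adjusted p = 0.0185).

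In these derived values ATF3 was at 1.54 ± 0.61 (adjusted p = 0.379), CHAC1 at a ratio between 1.13 and 4.29 at 95% confidence (adjusted p = 0.515), PPP1R15A at 1.06 ± 0.57 (adjusted p = 0.869) and TRIB3 at 1.03 ± 0.35 (adjusted p = 0.174). ATF4 was at -0.26 ± 0.21 and CEBPB at -0.05 ± 0.22 (adjusted p = 1.00 for each). For TRIB3 and CHAC1 the derived value in shE4F1 cells and the deposited value in shCTRL cells thus had opposite signs, and the difference between these effects is the difference of knockdown effects tested above.

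Ordered by level over the 4 groups, ATF4, TRIB3 and CHAC1 were highest in untreated shCTRL cells, and each of the other groups compared with it was lower. For TRIB3 the order was then shCTRL with gemcitabine, shE4F1 with gemcitabine and untreated shE4F1; the first of these neighbours differed in the authors' deposited table, and the last (1.03 ± 0.35, derived) were not called apart. For CHAC1 the order was the same, with no call between shCTRL and shE4F1 under gemcitabine or between the shE4F1 groups. ATF4 had no call between the hairpins under gemcitabine, and untreated shE4F1 was not compared with shCTRL under gemcitabine.

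ATF3, DDIT3 and PPP1R15A shared another order: shCTRL with gemcitabine, untreated shCTRL, shE4F1 with gemcitabine, untreated shE4F1. The first neighbours were called apart for ATF3 and DDIT3 and not for PPP1R15A. Untreated shCTRL and shE4F1 with gemcitabine were not called apart for any of the 3, and the shE4F1 groups were called apart for DDIT3 only. CEBPB stood at about 1 level in 3 groups and lower in shCTRL with gemcitabine. CEBPG was lowest in untreated shE4F1 cells, EIF2AK3 was highest in shCTRL cells with gemcitabine, and ATF5 differed in no comparison.

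The precision of these values was uneven. PPP1R15A had an SE of 0.41, 0.37 and 0.40 in the authors' deposited tables that use the untreated shCTRL libraries, larger than that of 99.2%, 99.0% and 99.0% of genes with a mean of at least 50. In the table of the knockdown under gemcitabine, which does not use them, its SE was 0.10, larger than that of 14.7% of such genes. ATF3 went from 0.43 in the untreated knockdown table to 0.17 under gemcitabine, and CHAC1 from 0.42 to 0.16, in the authors' deposited tables. For gemcitabine in shCTRL cells and for both changes, the SE was 0.25 and 0.26 for CHAC1, and 0.26 and 0.43 for ATF3. The widest SE of CHAC1 was thus in the untreated knockdown table only. The SE follows the spread between libraries and the count, and which library carried the spread was not tested.

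**Figure D3:**
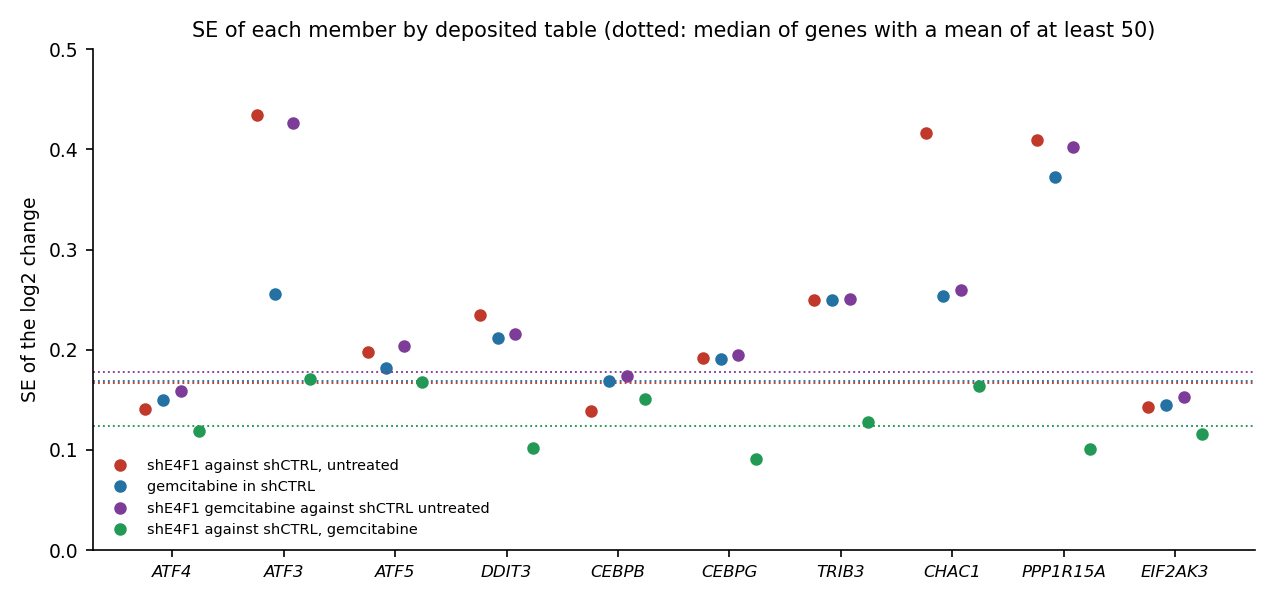
SE of the log2 change of each member in the 4 deposited tables (coloured points); dotted lines are the median SE of genes with a mean normalized count of at least 50 in the table of the same colour. PPP1R15A lies between 0.37 and 0.41 in the 3 tables that use untreated shCTRL libraries and at 0.10 in the other.

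Around the regulators, 47 other genes described as ATF4 or CHOP targets were followed, amino acid synthesis, transport and tRNA charging genes among them. In untreated shE4F1 cells 37 of the 47 fell and 2 rose (median -1.12), where 19.3% of all genes tested fell and 17.5% rose. Under gemcitabine 19 fell and 9 rose (median -0.14), beside 20.8% and 20.3% of all genes, so the share that rose was near that of all genes. Gemcitabine in shCTRL cells lowered 30 and raised 1 (median -0.77), beside 13.5% and 14.5%. The knockdown effects differed between conditions for 36 of the 47, above 0 for 35 and below 0 for 1 (median 0.93), beside the 2.81% and 2.63% of all genes. The list was compiled from general knowledge with earlier results of these data known, and is not independent of the members.

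Among these targets the secreted factor genes INHBE and FGF21 had the largest falls without drug, -3.82 ± 0.30 and -3.56 ± 0.47 in the authors' deposited table, FGF21 at a mean of 25.8 normalized counts. BCL2L11, of the BH3-only cell death proteins, rose by 1.02 ± 0.20 and KLHL24 by 0.67 ± 0.14 in the authors' deposited table. With the drug present, GDF15, a stress cytokine, fell by 2.46 ± 0.16 and PSPH, of serine synthesis, fell by 1.70 ± 0.11, while TRIB2, a relative of TRIB3, rose by 1.63 ± 0.20 in the authors' deposited table. In shCTRL cells DDIT4, an inhibitor of mTORC1, fell by 3.06 ± 0.17 with gemcitabine, TRIB2 fell by 1.59 ± 0.24, and CDKN1A, also a p53 target, rose by 1.36 ± 0.17, in the authors' deposited table. CDKN1A was the member of the list whose difference between conditions was below 0 (derived, -0.92 ± 0.22, adjusted p = 0.00144).

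Upstream of ATF4, 20 other genes of the eIF2 kinases, the eIF2 phosphatase and the exchange factor eIF2B were followed. In untreated shE4F1 cells 7 fell and 2 rose, where 19.3% of all genes tested fell and 17.5% rose. Under gemcitabine 8 fell and 6 rose (20.8% and 20.3% of all genes), and gemcitabine in shCTRL cells gave 6 lower and 1 higher (13.5% and 14.5%). The medians were -0.26, -0.16 and -0.22. The knockdown effect differed between conditions for 1 of the 20, a share near that of all genes. The kinase genes EIF2AK4 (GCN2, which senses uncharged tRNA) and EIF2AK2 (PKR, which senses double-stranded RNA) rose without drug, by 0.59 ± 0.14 and 0.55 ± 0.13, in the authors' deposited table. EIF2AK4 rose under gemcitabine too, by 0.79 ± 0.09 in the authors' deposited table. The eIF2B subunit gene EIF2B3 fell in both conditions, with changes of -1.03 ± 0.16 and -1.18 ± 0.10 in the authors' deposited tables. EIF2A, which despite its name is no eIF2 subunit, fell by 1.43 ± 0.14 in the authors' deposited table for gemcitabine in shCTRL cells, and was the gene whose knockdown effects differed (derived, 0.91 ± 0.18, adjusted p = 3.45e-05).

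Of 24 other ATF, CREB and C/EBP family genes 22 were tested. In untreated shE4F1 cells 7 fell and 2 rose, beside the 19.3% and 17.5% of all genes. Under gemcitabine 6 fell and 5 rose, shares near the 20.8% and 20.3% of all genes, and gemcitabine in shCTRL cells gave 7 lower and 4 higher, beside 13.5% and 14.5%. BATF3 fell by 1.44 ± 0.32 and NFE2L1, which drives proteasome genes, fell by 1.09 ± 0.17 without drug in the authors' deposited table. BATF2 rose by 1.30 ± 0.37 and CREB3L1 by 0.39 ± 0.13 in the same authors' deposited table. The means of BATF3 and BATF2 there were low, at 59.7 and 35.4 normalized counts. JDP2, a repressor that pairs with ATF and JUN proteins, rose by 1.13 ± 0.10 and CEBPD by 0.64 ± 0.17 under gemcitabine in the authors' deposited table. In shCTRL cells both had fallen with the drug, with -0.94 ± 0.13 for JDP2 and -0.67 ± 0.23 for CEBPD in the authors' deposited table. That table shares the treated shCTRL libraries with the one before. CREB5 had the reverse pair of signs, 1.46 ± 0.23 with gemcitabine in shCTRL cells and -1.30 ± 0.11 for the knockdown under gemcitabine, in the authors' deposited tables.

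Sensors and chaperones of the endoplasmic reticulum, where PERK acts, numbered 20. The lists overlap, and a gene in several lists counts in each. HERPUD1 and DNAJB9 are also among the ATF4 and CHOP targets, DNAJC3 among the eIF2 genes and ATF6 among the ATF and CREB genes. JDP2 is in both the target list and the ATF and CREB list. In untreated shE4F1 cells 10 fell and 1 rose (median -0.44), where 19.3% of all genes tested fell and 17.5% rose. Under gemcitabine 6 fell and 6 rose (median -0.09), beside 20.8% and 20.3% of all genes. With gemcitabine in shCTRL cells 12 fell and none rose (median -0.46), beside 13.5% and 14.5%. EDEM1 was the gene that rose without drug, by 0.58 ± 0.13 in the authors' deposited table. XBP1, the factor activated by the sensor IRE1, fell by 1.96 ± 0.19 and ERN1, the gene of IRE1, fell by 1.50 ± 0.23 without drug in the authors' deposited table. Both fell again under gemcitabine, with -0.74 ± 0.10 and -1.13 ± 0.11 in the authors' deposited table, while the chaperone gene DNAJB9 rose by 1.09 ± 0.14. HERPUD1, of protein disposal, fell by 1.49 ± 0.16 in the authors' deposited table for gemcitabine in shCTRL cells. The knockdown effects differed for 4 of these 20, all above 0, beside 2.81% of all genes called above 0 and 2.63% below.

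**Figure D4:**
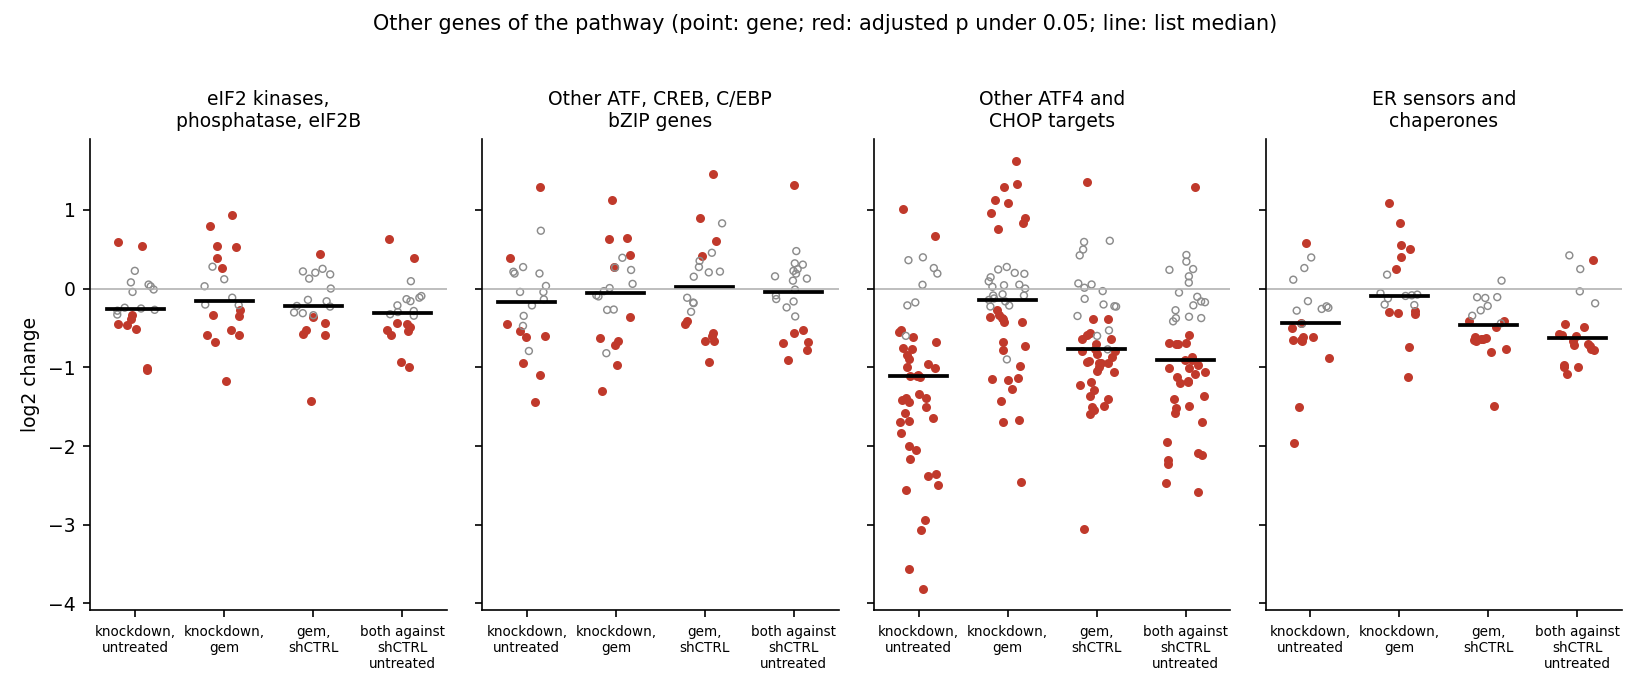
Log2 change of each gene (points) of the 4 other lists in the 4 deposited comparisons; red points have an adjusted p under 0.05, black lines are list medians, ER is the endoplasmic reticulum and "gem" is gemcitabine. The ATF4 and CHOP targets have medians of -1.12 for the untreated knockdown and -0.14 for the knockdown under gemcitabine.

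For 4 members the genes most like them were sought among 12448 genes with a mean of at least 50 in every table, by Euclidean distance over the log2 changes of both knockdown tables and of gemcitabine in shCTRL cells. The untreated and the treated shCTRL libraries each enter 2 of the 3 tables, so likeness over these values is a description. TRIB3 was nearest to CHAC1 (distance 0.545), then CTH (0.673) and ASNS (0.857), which belong to cysteine and asparagine synthesis. ATF4 was nearest to NOL7 (0.104), VLDLR (0.172) and H1F0 (0.256).

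DDIT3 was nearest not to a listed target but to SKA1 (0.136), a spindle gene, DDB2 (0.147), of nucleotide excision repair, and TRAIP (0.175), a ubiquitin ligase of replication. ATF3 was nearest to PSTPIP2 (0.565), GINS4 (0.650), of the replicative helicase, and ABCC9 (0.745). The nearest genes of DDIT3 had, like it, lower values with shE4F1 in both conditions and higher ones with gemcitabine in shCTRL cells, for SKA1 -1.58, -1.10 and 0.80 in the authors' deposited tables.

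Some counts can be affected by overlapping neighbours, since the strand setting of the counting is not given in the sources used here. Whether reads were gained or lost was not tested, and the overlaps are of whole gene spans, not of exons. In GENCODE 29 (GRCh38), DDIT3 (chromosome 12, 57516588 to 57521737, minus strand) overlaps AC022506.1 on its own strand and MARS and MBD6 on the other, with mean normalized counts of 7382 for MARS and 833 for MBD6 in the authors' untreated knockdown table. ATF5 (chromosome 19, 49928702 to 49933935, plus strand) overlaps NUP62, IL4I1 and AC011452.1 on the other strand, EIF2AK3 (chromosome 2, 88556741 to 88627576, minus strand) overlaps 2 antisense genes and CEBPB (chromosome 20, 50190734 to 50192689, plus strand) overlaps CEBPB-AS1. The others overlap no annotated gene: ATF4 (chromosome 22, 39519695 to 39522685), ATF3 (chromosome 1, 212565334 to 212620777), CEBPG (chromosome 19, 33373330 to 33382686), TRIB3 (chromosome 20, 362835 to 397559), CHAC1 (chromosome 15, 40952962 to 40956519) and PPP1R15A (chromosome 19, 48872392 to 48876057), all on the plus strand. ATF4 has processed pseudogenes, of which ATF4P3 and ATF4P4 had means of 4.17 and 5.04 in that table. How many of their reads came from ATF4 was not tested.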

How the data were processed

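RNA of 12 SUM159 libraries was sequenced. Per the submitters' processing notes reads were handled with TopHat2 2.1.1, Bowtie2 2.2.9, FastQC and bcl2fastq on GRCh38.p7, and counted and compared with HTSeq 0.9.0 and, under R 3.4.0, DESeq2 1.14.1. The sources used here give no annotation release, strand setting or design formula. Each of 4 tables deposited by the authors gives, per the file headers, a signal per gene (the mean normalized count), a log2 fold change with its SE, the Wald score and p-values (raw and Benjamini-Hochberg adjusted). Genes with a mean under 10 reached at most 2.57 (log2), against 5.01 over all genes, in the untreated knockdown table, so fold changes were moderated. The names of 12 count columns match no label; these columns were not used, so depth per library is unknown and precision is given by the SE. The interaction and the gemcitabine effect in shE4F1 cells were derived with SEs from summed variances. The software was scipy 1.17.1, numpy 2.4.6 and, in Python 3.11.15, pandas 2.3.3. The calculation was checked on simulated data with independent errors drawn from the deposited SEs. That simulation left out the shared untreated shCTRL libraries, so it does not test the error rate in these data. Named genes are all members, up to 2 rises and 2 falls per list and table, and the 3 nearest genes of 4 members. Members and lists were chosen with earlier results of these data known. Alternatives were other call rules, means of at least 50, no filter, centring and other table paths.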

Additional observations from a re-analysis of the deposited data

Results flagged for a closer look

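The knockdown effect differed between gemcitabine-treated and untreated cells for 6 members (two-sided normal test of the difference, Benjamini-Hochberg adjusted p under 0.05 over all genes). Of all genes tested 2.81% had such a call above 0 and 2.63% below 0. The derived difference, treated minus untreated, was 2.88 (log2) for CHAC1, 2.50 for TRIB3, 1.05 for ATF4, 1.03 for CEBPB, 0.77 for CEBPG and -0.67 for EIF2AK3. The SE of PPP1R15A, ATF3 and CHAC1 was larger in the untreated than in the treated knockdown table (0.41, 0.43 and 0.42 against 0.10, 0.17 and 0.16), and its part in these differences was not tested.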

How the results depend on the processing

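Of 330 values of single members under alternatives, 308 kept their direction and side of the threshold, 18 kept only their direction and 4 changed sign. Other call rules, the mean of at least 50 and adjustment over every gene reused the same log2 changes, so no direction could change there. Requiring an adjusted p under 0.01 or a change of at least 1 could only remove calls. Values not called in the main results were therefore bound to count as kept under those rules. Only centring and the other table paths could change a sign. Those that changed sign were never called: centring gave 0.0151 for CEBPB in the untreated knockdown, and 0.0421 for ATF5 and 0.0411 for EIF2AK3 with both changes, and the other tables of the triangle gave -0.000115 for ATF4 under gemcitabine. Requiring a change of at least 1 (log2) left 2 lower and 0 higher members under gemcitabine, against 6 and 1, 1 higher for gemcitabine in shCTRL cells, against 3, and 0 with a difference between conditions below 0, against 1. The other tables of the triangle left 2 lower under gemcitabine. An adjusted p under 0.01 left 1 member higher for gemcitabine in shE4F1 cells, against 2. Through the gemcitabine effects the difference between conditions was called above 0 for 3 members and below 0 for 0, against 5 and 1. The larger SE of the paths through more tables is part of their construction. Neither restricting to genes with a mean of at least 50 nor adjusting over every gene with a p-value changed a call of any member. For the knockdown under gemcitabine and both derived comparisons, adjusting over every gene repeats the main values and tests nothing. No paired analysis was possible because the count columns carry no replicate label, and for the same reason no library was left out in turn. Depth limits could not be given.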

Other observations

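INHBE, SLC38A2 and DDIT4 are given here after their values were seen. INHBE, an activin subunit gene, had the largest fall of the 47 listed targets in untreated shE4F1 cells. Its derived gemcitabine effect in shE4F1 cells was 3.54 ± 0.53 (adjusted p = 2.84e-08), the one rise called among the 47 targets in that comparison, and SLC38A2, an amino acid transporter gene, had the one fall, -0.84 ± 0.21 (adjusted p = 0.0107). The derived difference between the knockdown effects of INHBE was 2.92 ± 0.50 (adjusted p = 1.52e-06), about as large as that of CHAC1 at 2.88 ± 0.45. DDIT4, at 2.54 ± 0.19 (adjusted p = 1.02e-37), had a smaller difference and the smallest SE of these 3.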
